A study of Mus musculus with 6 samples.

Results

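The genes described here are 10 genes of blood vessel lining that serve as markers of vascular or capillarised endothelium or act in the pathways that keep it: Cd34, Pecam1, Vwf, Plvap, Kdr, Flt1, Tek, Tie1, Eng and Angpt2. They were chosen by gene symbol, and all 10 were found among the 55401 genes of the deposited table. Liver RNA came from 2 groups of 3 male mice, each 8 weeks old at the start and kept on a diet labelled MCD for 5 weeks. The control mice had the genotype Prdx1(lox/lox), with floxed Prdx1 alleles and no Cre, and the knockout mice had the genotype Prdx1(lox/lox);Alb-cre, with the same alleles and Cre recombinase under the albumin promoter, which is active in hepatocytes. Both groups carried the floxed alleles and both were fed MCD, usually short for a diet low in methionine and choline that injures the liver, so no mouse on a normal diet enters the comparison. Strain, litter and batch are not given in the sources used here, and the series' design text gives 3 mice for each genotype, matching the 3 libraries.

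The liver's sinusoids are lined by a specialised endothelium that is perforated by small pores and lacks a continuous basement membrane. In chronic liver injury this lining can take on features of continuous capillaries, a change called capillarisation, in which markers such as CD34 and von Willebrand factor and a basement membrane appear. Vessel growth and stability are governed by vascular endothelial growth factors acting on the receptors VEGFR1 and VEGFR2 (Flt1 and Kdr), by angiopoietins acting on TIE2 (Tek) with its partner TIE1, and by the ligands BMP9 and BMP10 acting on ALK1 with the co-receptor endoglin (Eng). Angiopoietin-1 activates TIE2, whereas angiopoietin-2 is a context-dependent ligand that often antagonises it.

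The libraries held 58790874 to 78291273 deposited counts. Prdx1, the floxed gene, was at 644, 570 and 663 CPM (deposited counts scaled to a common total, with library sizes adjusted by TMM factors) in the control libraries and at 78.7, 111 and 75.4 CPM in the knockout libraries, a log2 fold change of -2.82 ± 0.17 (SE; edgeR quasi-likelihood test, adjusted p = 4.4e-05), in the direction of the labels. The TMM factors ran from 0.869 to 0.888 in the controls and from 1.1 to 1.16 in the knockouts. With library sizes alone, the median log2 difference over all tested genes was 0.41 in place of 0.05, so each member is also given relative to that median where the scaling changes its call. Of 18931 genes tested, 3767 were higher in the knockout (19.9%) and 3415 were lower (18.0%), 37.9% in all. Because the RNA is from whole liver, more cells of a type and more RNA per cell cannot be told apart.

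Of the 10 genes, 4 rose in the knockout (Cd34, Vwf, Eng and Tie1), 1 fell (Angpt2) and 5 did not pass the test (Flt1, Tek, Pecam1, Plvap and Kdr), beside 19.9% of all tested genes called higher and 18.0% called lower. Cd34 stood apart in size, at 9.33 times its control level, while the other risers were between 1.31 and 1.51 times theirs. The median log2 fold change of the 10 genes was 0.19, against 0.05 over all tested genes. In CPM, 5 genes were higher in every knockout library than in every control library, 1 was lower in every one, and 4 overlapped. Over all tested genes, 53.0% did not overlap, 28.8% in the higher direction and 24.2% in the lower. In the authors' FPKM, which carry no TMM factor, 8 genes did not overlap in the higher direction beside 45.0% of all tested genes, Angpt2 did not overlap in the lower direction beside 10.3%, and Kdr overlapped.

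**Figure D1:**
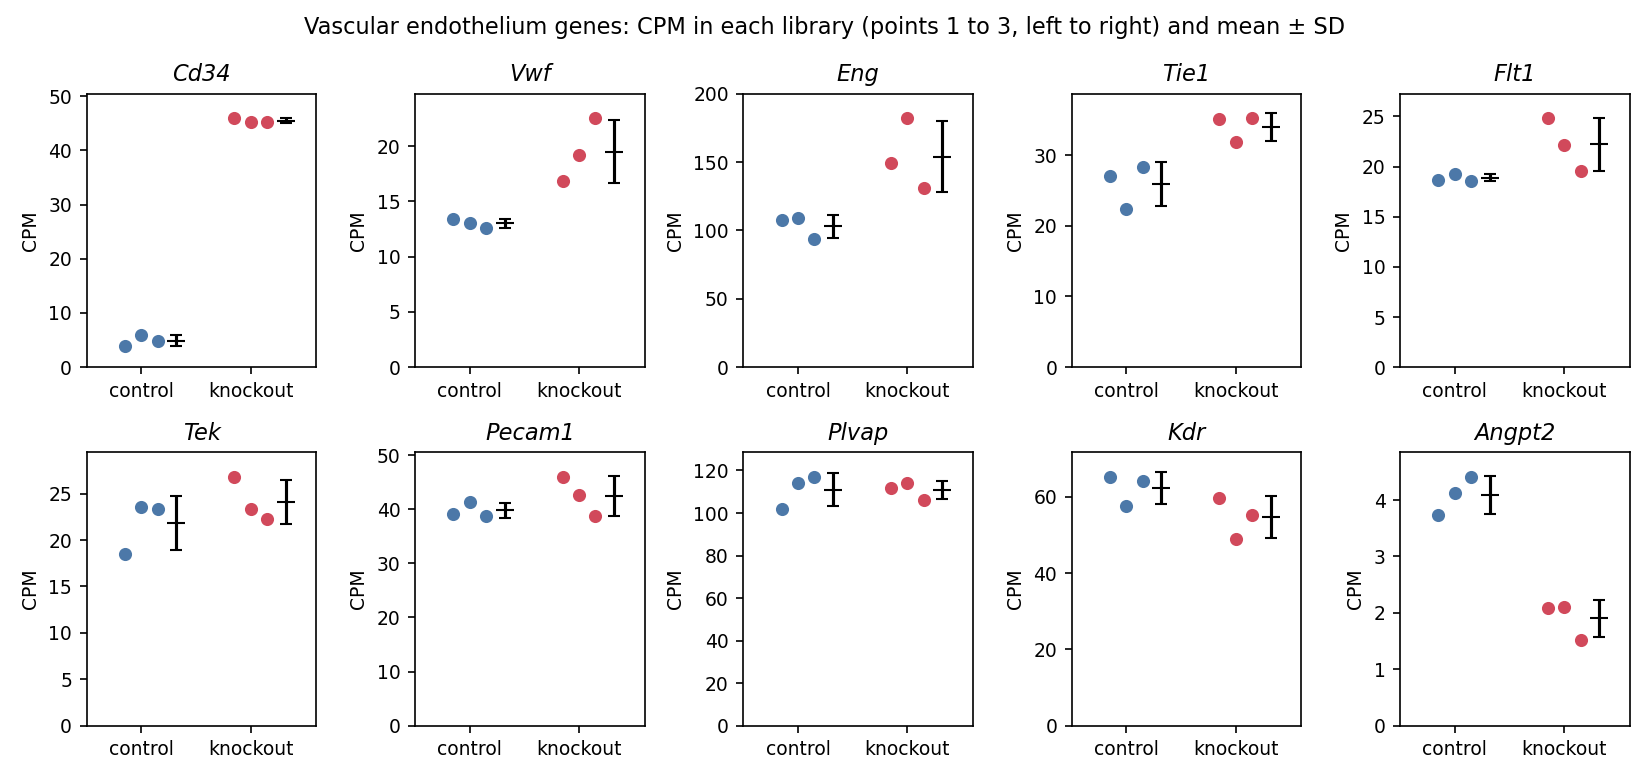
CPM (TMM-scaled library sizes, linear axes from 0) of the 10 vascular genes in each of the 3 control and 3 knockout libraries, with the mean and SD beside the points. The Cd34 points move from between 3.87 and 5.93 to between 45.2 and 45.9 CPM, Angpt2 drops, and Plvap, Pecam1, Tek and Kdr overlap between the groups.

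Promoter sequence is shown for 3 of the 4 genes that rose, so that the start regions of Cd34, Eng and Tie1 can be read side by side. RefSeq (GRCm38.p6) gave a promoter window, from 250 bases before to 50 bases after the gene's start in RefSeq, for 6 of the 10 genes (Cd34, Kdr, Flt1, Tek, Tie1 and Eng). The windows are chr1:194938571-194938870 on the plus strand for Cd34, chr2:32646345-32646644 on the plus strand for Eng and chr4:118489800-118490099 on the minus strand for Tie1. The RefSeq start of Tie1 differs from that of the deposited table, so most of its window lies inside the gene as the table places it. Each is written 5′ to 3′, and capitals mark AGGAAG or its reverse complement CTTCCT, a core that ETS factors, a family with several endothelial members, can bind.
Cd34: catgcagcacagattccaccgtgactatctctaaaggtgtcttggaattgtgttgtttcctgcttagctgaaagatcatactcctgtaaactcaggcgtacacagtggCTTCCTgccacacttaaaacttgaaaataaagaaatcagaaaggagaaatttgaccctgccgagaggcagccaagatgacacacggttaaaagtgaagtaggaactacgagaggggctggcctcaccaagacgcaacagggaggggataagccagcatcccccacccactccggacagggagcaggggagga
Eng: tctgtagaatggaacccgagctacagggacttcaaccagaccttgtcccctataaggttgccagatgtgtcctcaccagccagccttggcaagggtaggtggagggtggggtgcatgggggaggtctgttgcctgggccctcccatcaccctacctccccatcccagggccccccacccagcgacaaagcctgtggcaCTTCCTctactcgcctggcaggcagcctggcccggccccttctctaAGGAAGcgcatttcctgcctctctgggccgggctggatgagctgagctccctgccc
Tie1: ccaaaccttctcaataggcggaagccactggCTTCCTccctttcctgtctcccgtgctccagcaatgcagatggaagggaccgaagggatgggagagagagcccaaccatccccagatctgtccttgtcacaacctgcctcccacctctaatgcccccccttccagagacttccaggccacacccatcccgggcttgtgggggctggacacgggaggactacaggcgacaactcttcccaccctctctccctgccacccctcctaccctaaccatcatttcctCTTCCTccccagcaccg

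AGGAAG lay in 4 of the 6 windows (Cd34, Eng, Flt1 and Tie1), and 35.4% of 32851 mouse promoter windows of the same length hold it on either strand. Counted from 1 at the 5′ end, it started at base 109 on the opposite strand in Cd34, at base 245 on the same strand and base 199 on the opposite strand in Eng, and at bases 32 and 284 on the opposite strand in Tie1. In Flt1, which did not pass the test, it started at bases 122 and 198 on the same strand. The other motifs searched on both strands were CCGGAA (14.9% of windows), AGATAA (11.2%), TGACTCA (5.2%) and TATAAA (13.6%). CCGGAA was found in Kdr alone among the 6, AGATAA in Tek alone, TATAAA in Flt1 alone and TGACTCA in none. A match describes letters in this window and not a bound site.

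The surface sialomucin CD34, found on capillary and large-vessel endothelium and also on blood progenitors and some fibroblasts, had the largest change of the 10 genes. Cd34 (chr1:194938819-194961279, plus strand, GRCm38) was at 3.87, 5.93 and 4.83 CPM in the controls and at 45.9, 45.3 and 45.2 CPM in the knockouts. The groups were far apart, and the knockout libraries differed little from each other: the means were 4.88 ± 1.03 and 45.5 ± 0.39 CPM (SD, n = 3 each). The log2 fold change was 3.22 ± 0.17 (SE; 95% interval 2.84 to 3.61; edgeR adjusted p = 3.27e-05), place 618 from the highest of the 18931 tested genes. Leaving out any 1 library gave 3.08 to 3.39. Per transcript length, Cd34 rose from 0.533 ± 0.107 to 6.39 ± 0.223 FPKM.

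Von Willebrand factor, the adhesive protein that endothelium stores and that platelets bind, rose less. Vwf (chr6:125546774-125686679, plus strand) was at 13.4, 13.0 and 12.6 CPM in the controls and at 16.8, 19.2 and 22.5 CPM in the knockouts, so the groups did not overlap and the knockouts were more spread. The means were 13.0 ± 0.419 and 19.5 ± 2.84 CPM, 1.51 times as high, with a log2 fold change of 0.59 ± 0.14 (95% interval 0.28 to 0.90, adjusted p = 0.0112). Platelet genes were measured beside it, since megakaryocytes also make the protein: the summed level of 11 platelet markers was 47.9 to 51.2 CPM in controls and 45.6 to 58.8 CPM in knockouts. Of these, 7 could be tested, 2 rose and none fell, beside 19.9% of all tested genes called higher and 18.0% lower. The risers were Pf4 (1.79 to 4.61 CPM) and Treml1 (0 to 0.732 CPM), and Gp6 had no counts in any library. The most abundant were Clec1b at 23.8 and 28.2 CPM and Itgb3 at 18.3 and 12.4 CPM (control and knockout means, neither past the test). These 2 genes make up most of the sum and are also in the sinusoidal (Clec1b) and tip cell (Itgb3) lists below. Their part in the Vwf result was not tested.

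PECAM-1, the adhesion molecule of all endothelial junctions, and PLVAP, which forms the diaphragms that close endothelial pores and caveolae, did not pass the test. Pecam1 (chr11:106654217-106750628, minus strand) was at 39.1, 41.3 and 38.8 CPM in the controls and at 46.0, 42.6 and 38.7 CPM in the knockouts, with the lowest knockout library below every control. Its log2 difference was 0.09 ± 0.10 (95% interval -0.13 to 0.32, adjusted p = 0.488). Plvap (chr8:71497765-71511752, minus strand) was at 102, 114 and 117 CPM in the controls and at 112, 114 and 106 CPM in the knockouts, and the knockout values lay within the control range. Its difference was -0.01 ± 0.09 (95% interval -0.21 to 0.19, adjusted p = 0.96).

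The receptors for vascular endothelial growth factors did not pass the test and lay on opposite sides of no change. Kdr (chr5:75932827-75978458, minus strand), the main signalling receptor VEGFR2, was at 65.2, 57.6 and 64.1 CPM in the controls and at 59.7, 48.9 and 55.2 CPM in the knockouts. The highest knockout library lay above the lowest control, and the log2 difference was -0.19 ± 0.10 (95% interval -0.43 to 0.05, adjusted p = 0.198). Flt1 (chr5:147561604-147726011, minus strand), the VEGFR1 gene whose soluble form traps the ligand, was at 18.7, 19.3 and 18.6 CPM in the controls and at 24.8, 22.1 and 19.6 CPM in the knockouts. Every knockout library lay above every control, but the knockouts were spread, and the log2 difference was 0.23 ± 0.12 (95% interval -0.04 to 0.50, adjusted p = 0.169). Within each library the ratio of Flt1 to Kdr in FPKM was 0.203 ± 0.0184 in controls and 0.272 ± 0.0332 in knockouts (exact permutation p = 0.1, the smallest that 3 against 3 can give; 0.167 adjusted over 10 ratios).

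In the angiopoietin system the receptors and the ligand differed. Tek (chr4:94739289-94874976, plus strand), the TIE2 receptor, was at 18.5, 23.6 and 23.3 CPM in the controls and at 26.8, 23.3 and 22.3 CPM in the knockouts. The groups overlapped, and the log2 difference was 0.15 ± 0.13 (95% interval -0.17 to 0.46, adjusted p = 0.442). Tie1 (chr4:118471191-118490061, minus strand), the orphan receptor that pairs with TIE2, rose from 27.0, 22.4 and 28.3 CPM to 35.1, 31.8 and 35.2 CPM. The means were 25.9 ± 3.09 and 34.0 ± 1.93 CPM, a ratio of 1.31, and the log2 fold change was 0.39 ± 0.12 (95% interval 0.12 to 0.66, adjusted p = 0.0315). The Tie1 call was lost when control 1, control 2, knockout 1, knockout 2 or knockout 3 was left out, with adjusted p of 0.0611, 0.0749, 0.0929, 0.0541 and 0.0876 in that order, and was kept without control 3 (0.0308). The Tie1 to Tek ratio in FPKM was 1.16 ± 0.246 in controls and 1.36 ± 0.135 in knockouts (exact permutation p = 0.3).

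Angpt2 (chr8:18690263-18741562, minus strand), which endothelium stores and releases at sites of vessel remodelling, was the only 1 of the 10 genes that fell. It was at 3.73, 4.12 and 4.41 CPM in the controls and at 2.09, 2.1 and 1.51 CPM in the knockouts, with every knockout below every control. The means were 4.09 ± 0.344 and 1.9 ± 0.336 CPM, 2.15 times lower, with a log2 fold change of -1.10 ± 0.24 (95% interval -1.65 to -0.55, adjusted p = 0.00837). It was also the least abundant in CPM, which with deposited counts of 128 to 258 limits its precision.

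Angpt1, the opposing ligand and usually a product of perivascular cells, rose over the same libraries. It was at 1.75, 1.11 and 0.941 CPM in the controls and at 6.76, 8.61 and 6.97 CPM in the knockouts, 5.88 times as high, with a log2 fold change of 2.56 ± 0.28 (edgeR adjusted p = 0.000483). The ratio of Angpt2 to Angpt1 in FPKM was therefore 3.02, 5.28 and 6.67 in control libraries 1 to 3, against 0.436, 0.342 and 0.304 in knockout libraries 1 to 3. Angpt2 exceeded Angpt1 in every control library and was below it in every knockout library, a log2 difference of -3.73 (exact permutation p = 0.1, adjusted 0.167). Against Tek, Angpt2 went from 0.241 ± 0.0177 to 0.1 ± 0.0141 (log2 difference -1.27, exact permutation p = 0.1).

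Endoglin, a co-receptor for BMP9 and BMP10, rose. Which cells of the liver gave the rise was not tested. Eng (chr2:32646595-32682658, plus strand) was at 108, 109 and 93.6 CPM in the controls and at 149, 182 and 131 CPM in the knockouts, all 3 above the controls but unequal. The means were 103 ± 8.57 and 154 ± 26.0 CPM, 1.49 times as high, with a log2 fold change of 0.57 ± 0.13 (95% interval 0.26 to 0.88, adjusted p = 0.0123). The receptor Acvrl1 (ALK1) also rose, by 1.19 ± 0.33 on the log2 scale from 6.1 ± 2.27 CPM (adjusted p = 0.0234), but not without control 2 (adjusted p = 0.0678), control 3 (0.0573) or knockout 2 (0.084). The Eng to Acvrl1 ratio in FPKM was 19.5 ± 5.95 in controls and 12.1 ± 1.94 in knockouts (exact permutation p = 0.2).

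**Figure D2:**
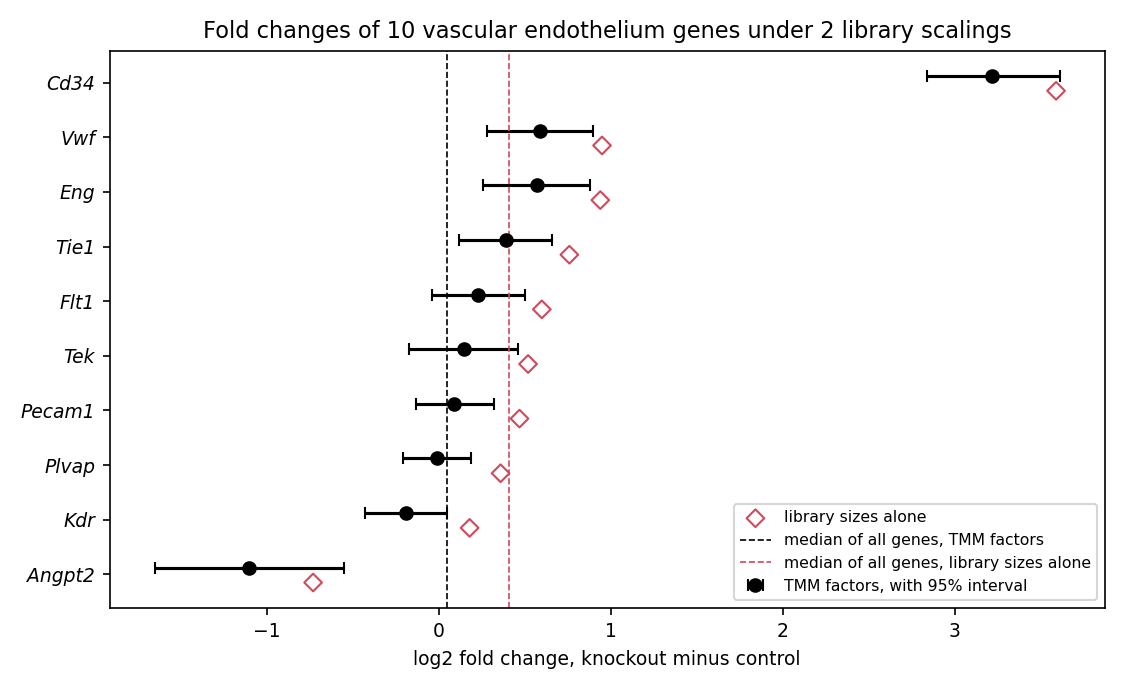
Log2 fold change (knockout minus control) of the 10 genes with 95% intervals from the edgeR fit with TMM factors, beside the values from library sizes alone. Intervals of Cd34, Vwf, Eng, Tie1 and Angpt2 leave out 0, and the values from library sizes alone lie further to the right for every gene.

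How many of the middle genes were called depended on the scaling of the libraries. With library sizes alone, 8 of the 10 genes were called higher beside 34.1% of all tested genes, and Angpt2 stayed lower at -0.73 (adjusted p = 0.0498) beside 6.6%, with 40.7% of all genes called in all. Limma on log2(FPKM + 0.5) also called 8 higher and 1 lower, beside 32.4% and 6.81% of all genes (39.2% in all). Flt1 was then at 0.60, Tek at 0.52, Pecam1 at 0.47 and Plvap at 0.36, with edgeR adjusted p of 0.00798, 0.0207, 0.0104 and 0.0171 in that order. Relative to the median of all genes in that fit, these values were 0.19, 0.10, 0.05 and -0.05. Kdr was at 0.18 (adjusted p = 0.235), or -0.24 relative to the median. On the same relative scale Cd34 was at 3.18, Vwf at 0.54, Eng at 0.53, Tie1 at 0.34 and Angpt2 at -1.15. The sign of Plvap and of Kdr therefore turns with the scaling, though relative to the median of all genes both were below 0 with library sizes alone too, and the sign of the other 8 genes was the same under TMM, RLE, upper-quartile factors and library sizes alone.

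Ratios within a library do not depend on that scaling, and with Pecam1 as the common base they separated the genes again. Cd34 to Pecam1 in FPKM went from 0.104 ± 0.0191 to 0.92 ± 0.0734, a log2 difference of 3.16. Vwf to Pecam1 went from 0.126 ± 0.00553 to 0.181 ± 0.042 (0.49), and Eng to Pecam1 from 4.01 ± 0.277 to 5.58 ± 0.865 (0.47). For each of these 3 ratios the groups did not overlap (exact permutation p = 0.1, adjusted 0.167). Kdr to Pecam1 was 1.08 ± 0.106 and 0.89 ± 0.0967 (exact permutation p = 0.2), and Plvap to Pecam1 was 8.78 ± 0.64 and 8.2 ± 0.523 (exact permutation p = 0.4). These ratios show unequal change and do not say which gene of a pair moved.

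**Figure D3:**
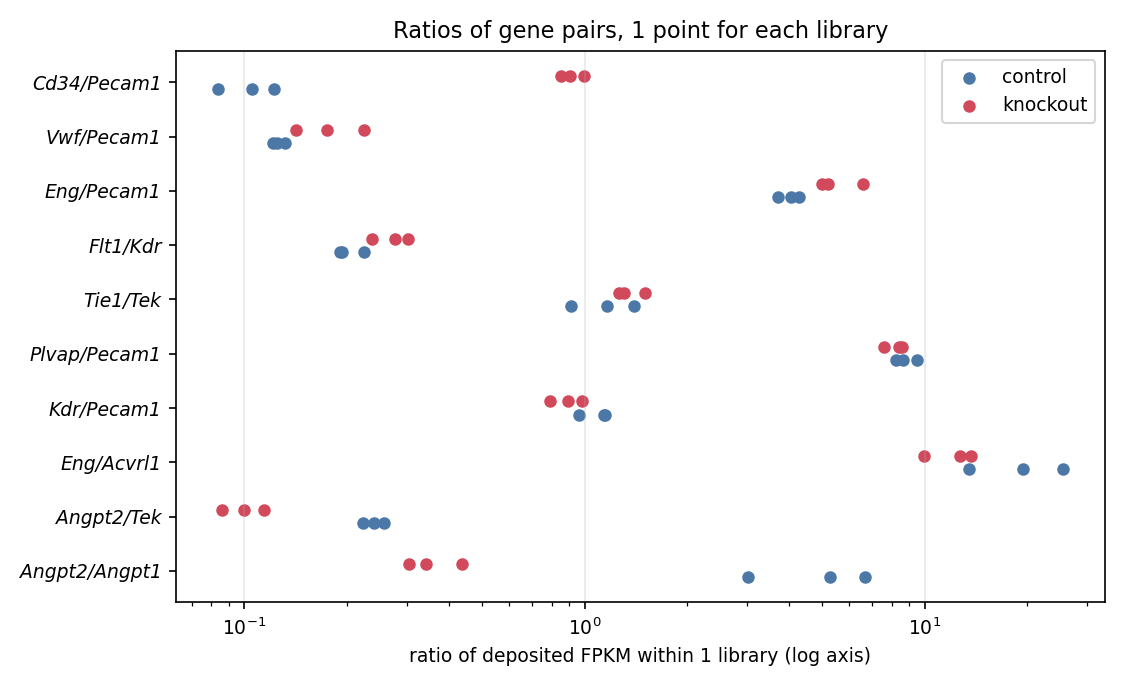
Ratio of 2 genes' FPKM within each library, on a log axis, for the 10 ratios in the 3 control and 3 knockout libraries. The Cd34 to Pecam1 points lie near 0.104 in controls and 0.92 in knockouts, and the Angpt2 to Angpt1 points lie on opposite sides of 1 in the groups.

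Levels per length gave the order of the genes. In the control livers Plvap was the most abundant at 45.0 ± 2.88 FPKM, ahead of Eng at 20.6 ± 1.67 FPKM. Kdr (5.55 ± 0.434), Pecam1 (5.13 ± 0.117), Tie1 (4.24 ± 0.548) and Tek (3.72 ± 0.464) came next, followed by Flt1 (1.12 ± 0.0111), Angpt2 (0.889 ± 0.0717), Vwf (0.647 ± 0.0245) and Cd34 (0.533 ± 0.107). Neighbours whose ranges of mean ± SD overlapped were Kdr and Pecam1, Tie1 and Tek, and Vwf and Cd34. In the knockout livers Plvap (57.1 ± 3.8 FPKM) and Eng (39.0 ± 7.46 FPKM) were still first. Tie1 (7.08 ± 0.349), Pecam1 (6.99 ± 0.781), Cd34 (6.39 ± 0.223), Kdr (6.19 ± 0.639) and Tek (5.25 ± 0.624) followed, each with a range of mean ± SD that overlapped its neighbour's, so that Cd34 moved from the last place to a level near Kdr. Flt1 (1.68 ± 0.239), Vwf (1.24 ± 0.147) and Angpt2 (0.527 ± 0.108) were the lowest. Plvap made up 51.5% of the summed FPKM of the 10 genes in controls and 43.5% in knockouts, and the summed CPM was 400.3 to 409.7 in controls and 477.0 to 531.7 in knockouts.

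The other genes of the same pathways were counted from lists of known function. Each count in these lists stands beside 19.9% of all tested genes called higher and 18.0% called lower. Among the ligands, 4 of 7 tested genes rose and none fell, with a median log2 fold change of 0.58. Besides Angpt1 these were Gdf2 (BMP9, made by stellate cells), Vegfd and Vegfc. Gdf2 rose from 45.2 ± 4.1 to 67.7 ± 11.7 CPM (0.58 ± 0.14, adjusted p = 0.015), but its adjusted p was 0.0504 without control 2, 0.0568 without knockout 1 and 0.0565 without knockout 2. Vegfd (1.05 ± 0.28, adjusted p = 0.0213) lost its call without control 1 (0.0571), control 2 (0.0589), knockout 1 (0.061) or knockout 2 (0.0683). Vegfc (0.73 ± 0.23, adjusted p = 0.0418) lost it without control 2 (0.106), control 3 (0.114), knockout 2 (0.0698) or knockout 3 (0.131), and with the replicate number as a block (0.0939). Vegfa, the main ligand of Kdr, was at 119, 125 and 113 CPM in controls and 137, 139 and 141 CPM in knockouts, which did not overlap but did not pass (0.22 ± 0.08, adjusted p = 0.0565). It passed under 8 of the 18 alternatives, among them library sizes alone (0.59, adjusted p = 0.000861), upper-quartile factors (0.0237) and counts divided by 4 (0.0427). Vegfb was at 0.07 ± 0.23 (adjusted p = 0.855). Bmp10, named after its value was seen, was at a log2 difference of -0.54 ± 0.22 from a control level of 14.6 ± 1.36 CPM (95% interval -1.06 to -0.03, adjusted p = 0.0897). Placental growth factor (Pgf), at 0.0238 and 0.183 CPM, was too low to test.

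Among the co-receptors and signal carriers, 5 of 11 tested genes rose and 2 fell (median 0.34), the risers being Svep1, Smad6, Smad7, Acvrl1 and Bmpr2. Svep1, a large matrix protein that binds TIE1, rose from 3.36 ± 1.31 to 43.8 ± 8.47 CPM (3.70 ± 0.30, adjusted p = 0.000132). Smad6 and Smad7, inhibitors that BMP signalling induces, rose by 1.49 ± 0.12 and 1.16 ± 0.17 (adjusted p = 0.00015 and 0.00171). The genes that fell were the syndecan Sdc2 (-0.45 ± 0.09, adjusted p = 0.00621) and the VEGF co-receptor Nrp1 (-0.38 ± 0.10, adjusted p = 0.0191). With library sizes alone they were at -0.08 and -0.01 and no longer passed, or at -0.49 and -0.42 relative to the median of all genes in that fit, and Nrp1 also lost its call without control 2 (adjusted p = 0.0503), control 3 (0.055), knockout 1 (0.0664) or knockout 2 (0.0658). Flt4 (VEGFR3) was at 0.01 ± 0.14, Nrp2 at -0.13 ± 0.09 and the TIE2 phosphatase gene Ptprb at -0.19 ± 0.10 (adjusted p = 0.976, 0.335 and 0.17).

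Pan-endothelial junction and surface genes were divided: 11 of 28 rose, 1 fell (Robo4, named after its value was seen, at -0.46) and 16 did not pass (median 0.36). The count of genes lower was 0 without control 1, control 3, knockout 1 or knockout 2, and 0 with library sizes alone. Podxl, a sialomucin related to CD34, rose from 11.3 to 31.7 CPM (1.5 ± 0.14, adjusted p = 0.000222). Cd200 rose from 1.48 to 7.22 CPM (2.28 ± 0.22), Ecscr from 4.09 to 12.4 CPM (1.6 ± 0.17) and Jam3 from 2.1 to 5.56 CPM (1.40 ± 0.20), with adjusted p of 0.000259, 0.000433 and 0.00152. Cdh5, the cadherin of endothelial junctions, rose from 50.5 ± 3.41 to 67.1 ± 2.19 CPM (0.41 ± 0.09, adjusted p = 0.00817). The tight junction gene Cldn5 (0.92 ± 0.25, adjusted p = 0.024) lost its call without control 2 (0.0632), control 3 (0.0722), knockout 1 (0.0818) or knockout 3 (0.0675), and Emcn (0.72 ± 0.19, adjusted p = 0.0208) lost it without control 1 (0.0572), control 2 (0.0512), knockout 1 (0.0627) or knockout 3 (0.0728). Nos3, the endothelial nitric oxide synthase, was at 0.41 ± 0.16 (adjusted p = 0.0904), and passed without control 3 (0.0323), with library sizes alone (0.77, adjusted p = 0.00803) and in the 3 filtered limma fits on FPKM (0.0102 to 0.0114).

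Endothelial transcription factors rose in 9 of 22 tested cases and fell in 1 (Hif1a, named after its value was seen, at -0.43), with a median of 0.48. None was lower without control 1, control 2, knockout 1 or knockout 2, or with library sizes alone. Fli1, an ETS factor, rose by 0.78 ± 0.12, Gata4 by 0.79 ± 0.12, Lyl1 by 1.45 ± 0.25 and Meox1 by 3.19 ± 0.63 from 0.613 CPM (adjusted p = 0.00171, 0.00194, 0.00321 and 0.00581). Arterial genes rose in 7 of 14 cases with none lower (median 1.12). Unc5b, a netrin receptor, rose from 18.0 ± 1.48 to 84.7 ± 11.1 CPM (2.24 ± 0.13, adjusted p = 4.04e-05), the elastic-fibre gene Fbln5 by 1.49 ± 0.11 (8.22e-05), the Notch ligand Jag1 by 2.02 ± 0.18 (0.000186) and the Notch target Hey1 by 1.87 ± 0.20 (0.000399). Jag1 and Fbln5 are also made by cells other than endothelium. Which cells gave the rises among the transcription factors and the arterial genes was not tested. Venous genes rose in 4 of 8 cases with none lower (median 0.56). Nr2f2, which sets venous identity, rose by 1.28 ± 0.16, Adgrg6 by 1.64 ± 0.25, Wnt9b by 1.63 ± 0.35 and the ephrin receptor Ephb4 by 0.55 ± 0.13 (adjusted p = 0.000829, 0.00179, 0.00838 and 0.012).

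Tip cell and sprouting genes rose in 6 of 10 tested cases with none lower (median 1.05). Pdgfb, a signal by which endothelium recruits pericytes, rose from 5.52 ± 0.512 to 23.4 ± 0.885 CPM (2.08 ± 0.13, edgeR adjusted p = 4.93e-05). Nid2 rose by 1.07 ± 0.12 (adjusted p = 0.0006) and Cxcr4 by 1.15 ± 0.22 (adjusted p = 0.00503). Which cells gave the rises in this list was not tested. Vascular basement membrane genes rose in 16 of 17 cases, and 1 fell (Col18a1, named after its value was seen, at -0.50), with a median of 1.74. Sparcl1 rose from 15.7 ± 2.47 to 151 ± 8.57 CPM (3.26 ± 0.13, adjusted p = 1.36e-05), a change of about the size of that of Cd34. Lamb2 (laminin beta) rose by 1.95 ± 0.10, Hspg2 (perlecan) by 1.51 ± 0.09 and Fbln2 by 2.38 ± 0.14 (adjusted p = 3.32e-05, 4.38e-05 and 4.97e-05). Stellate cells and fibroblasts also make these matrix proteins.

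Among sinusoidal endothelium genes, 2 of 18 rose (Stab1 and Mrc1), 6 fell and 10 did not pass (median -0.20). Stab1 and Mrc1 are also macrophage genes, and 10 of 11 macrophage markers rose; their part in these 2 results was not tested. The scavenger receptor gene Stab2 was at 127 ± 2.57 CPM in controls and 113 ± 9.22 CPM in knockouts (-0.16 ± 0.09, adjusted p = 0.185), and Lyve1 at 48.2 ± 5.17 and 36.9 ± 6.99 CPM (-0.39 ± 0.15, adjusted p = 0.0855, and 0.047 without knockout 1). The 4 with the smallest p were F8 (-1.05), Dnase1l3 (-0.75), Oit3 (-0.77) and Stab1 (0.71). With library sizes alone the median of the list was 0.16 in place of -0.20. In that fit 7 genes were higher and 3 lower, beside 34.1% and 6.6% of all tested genes. Its sign turns with the scaling, but it lay below the median of all genes in both fits (0.41 with library sizes alone and 0.05 with TMM). Over the 9 lists with each gene counted once, 61 of 130 tested genes rose and 11 fell, with a median of 0.56. Over all tested genes, 19.9% were called higher and 18.0% lower, with a median of 0.05.

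**Figure D4:**
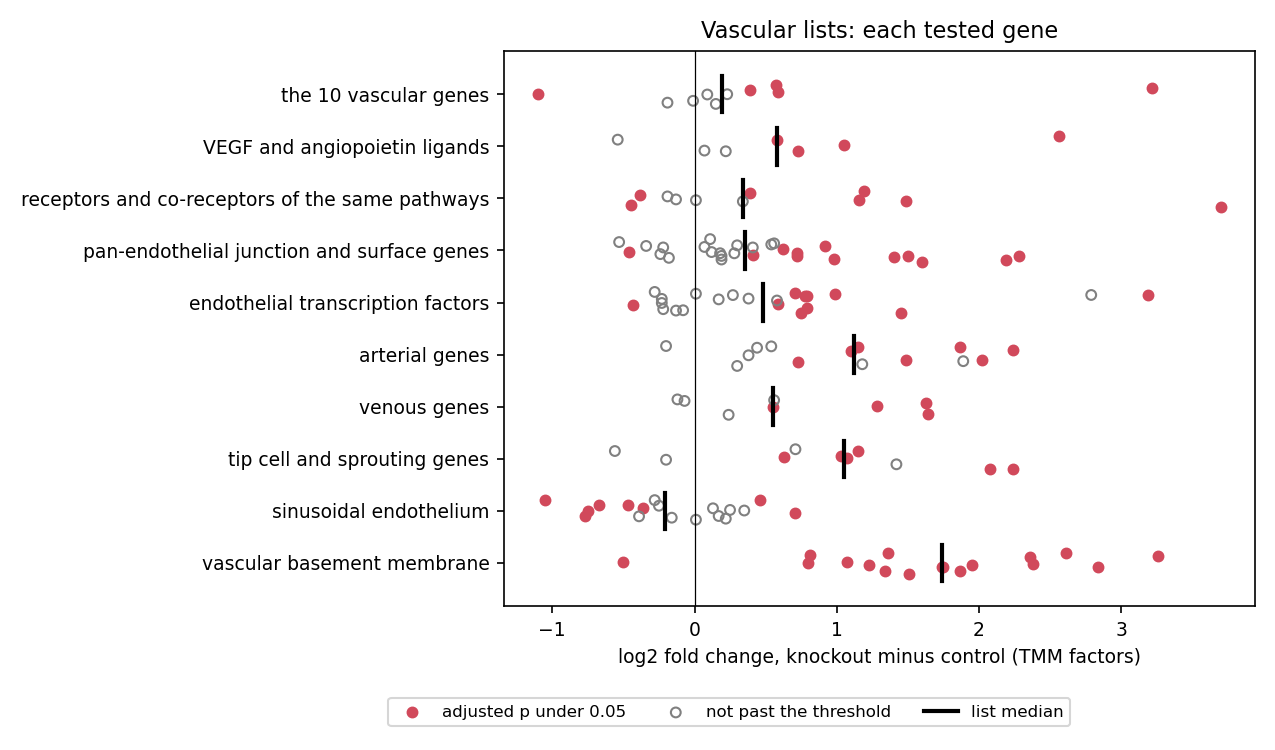
Log2 fold change (knockout minus control, TMM factors) of each tested gene of the 10 vascular genes and of 9 vascular lists, with filled points past an adjusted p of 0.05 and a bar at each list's median. The medians run from -0.20 for sinusoidal endothelium to 1.74 for the basement membrane, and Cd34 lies at 3.22, far from the other 9 genes of its row.

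Markers of other cell types moved with the genotype. The marker counts stand beside 19.9% of all tested genes called higher and 18.0% called lower. Beside the rise of Cd34, whose product also marks some fibroblasts and blood progenitors, the summed level of 10 portal fibroblast markers was 37.9 to 50.2 CPM in controls and 321.2 to 357.5 CPM in knockouts, and 9 of the 10 rose, led in level by Eln (8.5 ± 1.44 to 193 ± 19.1 CPM) and Dpt (7.1 ± 2.39 to 51.1 ± 1.9 CPM). The 9 progenitor markers summed to 61.5 to 70.0 CPM and to 92.4 to 112.4 CPM; 7 could be tested, 4 rose (Spi1, Cd48, Meis1 and Flt3) and none fell, with Spi1 (20.0 and 33.1 CPM) and Ly6a (14.1 and 17.4 CPM) the most abundant. Stellate and pericyte markers, beside Angpt1 and the basement membrane genes, summed to 429.5 to 438.4 CPM and to 713.8 to 900.2 CPM, and 10 of 14 rose and 1 fell (Vipr1), with Reln and Abcc9 the most abundant. Their part in the Cd34, Angpt1 and basement membrane results was not tested. The 6 markers listed for endothelium summed to 229.5 to 244.4 CPM in controls and 236.8 to 265.2 CPM in knockouts. The most abundant was Stab2, also in the sinusoidal list, at 127 and 113 CPM (control and knockout means). Cdh5 followed at 50.5 and 67.1 CPM, so the sum is weighted towards a sinusoidal gene. Of the 6, 3 were higher (Cdh5, Cldn5 and Emcn) and none lower, and all 6 had counts in every group. Macrophage markers (10 of 11 higher, summing to 1240.6 to 1510.2 CPM and 3096.3 to 3353.1 CPM), neutrophil and monocyte markers (Csf3r, Ccr2, S100a8 and Ngp of 8 higher), lymphocyte markers (Cd3e, Cd3g, Cd8a and Cd4 of 10 higher) and cholangiocyte markers (7 of 7 higher) moved too, while hepatocyte markers fell in 9 of 10 cases. Red cell markers fell in 1 of 5 tested cases (Alas2). The markers other than the most abundant 2 of each list were named after their values were seen.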

How the data were processed

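Liver mRNA of 3 control and 3 knockout mice was sequenced. Per the labels' protocols, libraries were dUTP-stranded with molecular identifiers. The tools listed, per the submitters' processing notes, were HISAT2 2.0.4 and StringTie 1.3.4d beside cutadapt 1.9, UMI-tools, edgeR and DESeq2. The deposited table gives an estimated count and an FPKM value per gene and library. Low counts were enriched at multiples of 4: control 1 had 854 genes at 4 but 280 at 3 and 167 at 5, so no counting intervals are given. The FPKM values made by the authors are 0.0001 where the count is 0. The notes list mm9, but 94.2% of identifiers found in GENCODE M21 had their GRCm38 position. Columns named wt were taken as controls, the only other genotype.

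Genes were filtered with filterByExpr (minimum count 10, total 15), scaled by TMM and tested with edgeR 4.0.16 (two-sided quasi-likelihood test, Benjamini-Hochberg over 18931 genes, threshold 0.05) in R 4.3.3. Alternatives were DESeq2 1.42.0, limma 3.58.1 on log2(FPKM + 0.5), + 0.1 or + 1, other scalings and filters, counts divided by 4, a replicate block, and leaving out each library. The scripts were tested on simulated data. Named genes were Prdx1, the 10 genes, up to 4 with the smallest p per list, fixed pathway genes, and the 2 most abundant or absent markers per list; some of these markers are not reported here. The genes and lists were chosen with earlier results of these data known. The design text gives 3 mice per genotype, and the edgeR p-values set the difference between genotypes against the spread among these libraries.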

Additional observations from a re-analysis of the deposited data

How the results depend on the processing

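Of the 5 called genes, Cd34 and Vwf kept their call under all 18 alternatives. Tie1 was at 0.30 to 0.46 with 1 library left out. With limma on log2(FPKM + 0.5) and no filter, Eng was at 0.89 (adjusted p = 0.0642) and Angpt2 at -0.44 (0.0969), leaving 0 of the 10 genes lower. Under library sizes alone and limma with 0.5, 0.1 and 1 added, 8 of the 10 genes were called higher: Pecam1 passed at 0.47, 0.41, 0.43 and 0.38, Flt1 at 0.60, 0.42, 0.53 and 0.33, and Tek at 0.52, 0.45, 0.49 and 0.41. With 1 library left out, 3 to 4 were higher. Signs that turned, in the same order and then without a filter in limma: Kdr 0.18, 0.14, 0.15, 0.13 and 0.14; Nrp2 0.24, 0.18, 0.21, 0.15 and 0.18; Ptprb 0.18, 0.14, 0.15, 0.14 and 0.14; Stab2 0.21, 0.18, 0.18, 0.17 and 0.18. Plvap was at 0.36 with library sizes alone, 0.05 with upper-quartile factors, 0.02 with no count filter, 0.02 at a mean CPM of at least 1 and 0.34 in limma, and at -0.06 to 0.03 with 1 library left out. Vegfb was at -0.11 to 0.36 and Flt4 at -0.08 to 0.14 with 1 library left out, and Flt4 at -0.00 with RLE. Over all genes, 6459, 6248, 6241 and 6212 were higher under library sizes alone and limma with 0.5, 0.1 and 1 added, and 1249, 1313, 1318 and 1309 lower (431 without a filter). The lists' genes called lower were then 3, 3, 3, 3 and 0, and 7 to 9 with 1 library left out (7 without knockout 2). The cause of these changes was not tested. Nothing in the labels says that the replicate numbers pair mice. In their deviations from the group mean, same-numbered libraries correlated at 0.01, 0.07 and 0.05, and differently numbered ones at -0.07 to 0.01. With 3 libraries in each group, this cannot show whether the numbers share a litter or batch. The replicate block called 3269 genes higher and 3207 lower. It changed no call among the 10 genes, though it ended that of Vegfc (0.72, adjusted p = 0.0939).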

Other observations

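Markers of lymphatic endothelium rose in 4 of 7 cases with none lower, beside 19.9% of all tested genes called higher and 18.0% lower. Their median log2 fold change was 0.82, against 0.05 over all tested genes. Their summed level was 316.1 to 355.1 CPM in controls and 415.9 to 473.4 CPM in knockouts. Reln, Prox1, Flt4 and Lyve1 make up nearly all of that sum. Pdpn (podoplanin) rose from 0.518 ± 0.233 to 1.86 ± 0.201 CPM (edgeR adjusted p = 0.0111) and the chemokine gene Ccl21a from 0.323 ± 0.0932 to 1.02 ± 0.295 CPM (adjusted p = 0.0346). The most abundant riser, Reln, went from 122 to 216 CPM (adjusted p = 0.0012) and is also a stellate cell gene, and Prox1, from 93.6 to 131 CPM (adjusted p = 0.0203), is also made by hepatocytes. The 3 that did not pass were Flt4 (64.2 and 64.5 CPM, control and knockout means), Lyve1 (48.2 and 36.9 CPM) and Mmrn1 (0.249 and 1.23 CPM). The 4 risers and Mmrn1 were named after their values were seen.

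Mesothelial markers went both ways. Wt1 (1.07 ± 0.205 to 3.9 ± 0.83 CPM, adjusted p = 0.00191) and Gpm6a (3.84 ± 1.14 to 9.68 ± 1.49 CPM, adjusted p = 0.00465) rose, while the uroplakin genes Upk3b (3.21 ± 1.22 to 0.365 ± 0.407 CPM, adjusted p = 0.0196) and Upk1b (0.483 ± 0.201 to 0.0158 ± 0.0273 CPM, adjusted p = 0.0209) fell, and 2 did not pass.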
